A study of Mus musculus with 2 samples.

Results

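The fatty acid elongases are the 7 mouse genes Elovl1 to Elovl7, followed here across retina labelled Mef2d KO and wild-type (WT) retina at postnatal day 14. Their members were taken as every non-control probe whose RefSeq accession belongs to one of these genes, which gave 9 of the 55669 probes on the array and 7 of its 20659 named genes. Total RNA of dissected retina was labelled with Cy3 and hybridised to one-colour Agilent arrays, with 1 array for the Mef2d KO retina and 1 for the WT retina. The labels used here give neither the strain, the sex and number of animals nor the design of the Mef2d deletion. The product of Mef2d is a MEF2 transcription factor. Each group has 1 array, so the differences lack a replicate check and carry no p-value.

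Elongases are membrane enzymes of the endoplasmic reticulum that carry out the first step of lengthening a fatty acid, the condensation of an acyl-CoA with malonyl-CoA. A reductase, a dehydratase and a further reductase then complete the cycle. ELOVL5, ELOVL2 and ELOVL4 act in succession on polyunsaturated chains, the route to docosahexaenoic acid and the very long chains of photoreceptor membranes. ELOVL1, ELOVL3, ELOVL6 and ELOVL7 work mainly on saturated and monounsaturated chains. In humans, mutations of ELOVL4 cause a dominant macular dystrophy of the Stargardt type.

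The upstream sequences of the 3 genes of the polyunsaturated route are shown because MEF2 factors act through promoters and enhancers, and because Elovl2 differed most between the arrays and Elovl4 is the elongase best known from photoreceptors. Each is the 250 bases before a transcript start, 5′ to 3′ on the gene's strand, from RefSeq on build GRCm38.p6. They lie at chr13:41220404-41220653 on the minus strand for Elovl2, at chr9:83806306-83806555 on the minus strand for Elovl4 and at chr9:77917115-77917364 on the plus strand for Elovl5. Capitals mark matches on either strand to the GC box GGGCGG, the CCAAT box CCAAT or the E-box CACGTG.
Elovl2: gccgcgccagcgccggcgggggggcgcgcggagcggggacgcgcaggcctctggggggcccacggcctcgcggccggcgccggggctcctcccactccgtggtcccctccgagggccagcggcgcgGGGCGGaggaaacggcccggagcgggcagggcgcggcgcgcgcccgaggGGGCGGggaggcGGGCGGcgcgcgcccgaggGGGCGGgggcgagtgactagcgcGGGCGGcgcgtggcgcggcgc
Elovl4: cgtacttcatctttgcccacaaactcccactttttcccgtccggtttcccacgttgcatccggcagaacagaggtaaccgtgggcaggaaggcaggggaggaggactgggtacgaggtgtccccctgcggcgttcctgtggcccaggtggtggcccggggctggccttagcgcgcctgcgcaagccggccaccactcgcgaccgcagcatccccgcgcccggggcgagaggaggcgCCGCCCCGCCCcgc
Elovl5: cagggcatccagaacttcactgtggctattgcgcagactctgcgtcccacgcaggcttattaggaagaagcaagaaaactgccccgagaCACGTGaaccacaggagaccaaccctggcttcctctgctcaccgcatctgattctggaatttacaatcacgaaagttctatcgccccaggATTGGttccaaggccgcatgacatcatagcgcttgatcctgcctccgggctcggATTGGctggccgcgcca

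The Elovl2 window shown was 87.2% G and C and held 5 GC boxes, all on the gene's strand. The window of its other start, at chr13:41220163-41220412, was 79.6% G and C and held 0. The Elovl4 window was 69.6% G and C and held 2 overlapping GC boxes on the opposite strand. The Elovl5 window was 55.6% G and C and had no GC box, but 2 CCAAT boxes on the opposite strand and an E-box. The median over 32851 such windows of all genes was 52.4%. In all, 6 of the 7 elongases had an entry, with 8 windows between them, since Elovl1 and Elovl2 have 2 starts each. A GC box was present in 5 of the 8, against 32.7% of all windows. The CCAAT box was present in 2 of the 8 against 33.8%, and the E-box in 1 of the 8 against 6.02%. The 8 windows were 55.6% to 87.2% G and C, and the windows of all genes were not matched to them for this. For MEF2, the letters CTA and TAG separated by NNNN were searched, N being any base. This pattern, open in its middle but fixed at both ends, was found in 0 of the 8 and in 3.20% of all windows. Other forms of a MEF2 site were not searched, and whether the matches are bound by MEF2 was not tested. The letters TAATCC, bound by the photoreceptor factor CRX, were found in 0 of the 8 and in 6.25% of all, and the sterol regulatory element TCACNCCAC in 0 of the 8 and in 1.05% of all. These counts describe the letters in these windows only.

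Of the 7 elongases, 6 were read well above background on both arrays by 8 probes, and Elovl3 was not well above background on either. Values below are the scanner software's processed signals in arbitrary units, each followed by the scanner error. A level is the log2 signal relative to its array's 75th percentile (858 on the array labelled Mef2d KO and 807 on the WT array). A difference is the Mef2d KO level minus the WT level, and its ± is again the scanner error, which leaves out the variation between animals. Between replicate spots of 1 probe on these arrays, for 280 probes above a mean level of -3, the median SD of the difference was 0.061.

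The targeted gene was examined first. The 2 Mef2d probes read 1083 and 295 on the array labelled Mef2d KO, against 758 and 252 on the WT array, with differences of 0.43 ± 0.20 and 0.14 ± 0.21. Mef2d was thus not lower, and no source used here places its probes relative to the deleted part, so directions below are those of the array labelled Mef2d KO. Xist, the RNA of the inactive X chromosome of females, was at least 51.7-fold and 26.4-fold higher by its 2 probes on that array than on the WT array, where it was not well above background, so genotype and sex composition cannot be told apart. The tissue label was borne out by rod, cone, bipolar, amacrine, ganglion, horizontal and Mueller glia markers, and each array read all 39 of them well above background. Lens markers were read as well. Of 9, 6 measured on each array stood 2-fold lower or more in the Mef2d KO sample and 0 stood 2-fold higher. Lim2, not well above background there, was lower by at least 6.60-fold. The lens sum, of signals relative to the 75th percentile over all 9 genes, was 44.9 on the array labelled Mef2d KO and 172 in WT.

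Elovl2, which lengthens polyunsaturated chains on the way to docosahexaenoic acid, stood furthest from 0 among the elongases. Its single probe read 3953 ± 395 on the array labelled Mef2d KO and 2384 ± 238 on the WT array. The level was 2.20 on the first and 1.56 on the second, a difference of 0.64 ± 0.20, or 1.56-fold higher. The signals stood further apart than the scanner error, but less than 2-fold. Among the 1941 genes within 0.5 of its mean level, the middle of the distribution ran from -0.27 at the 5th percentile to 0.34 at the 95th. Of these genes 2.78% stood at least as far from 0, in either direction, and of all measured genes 6.32%. Elovl2 was picked as the elongase furthest from 0, so a share for a single gene makes it look more unusual than it is. Whether animals of 1 group differ by as much was not measured.

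Elovl4, the elongase of photoreceptors that makes very long polyunsaturated chains, was slightly dimmer on the array labelled Mef2d KO by both of its probes. The brighter probe read 14483 ± 1448 there and 15603 ± 1560 in WT, a difference of -0.19 ± 0.20. The other read 5216 ± 522 on the array labelled Mef2d KO and 5657 ± 566 in WT, a difference of -0.20 ± 0.20. The probes lay 0.0096 ± 0.29 apart, where the median gap over 3599 genes with 2 readable probes was 0.12. Both differences were of the size of the scanner error. Of the genes of like level, 21.8% stood at least as far from 0 as the brighter probe and 20.8% as the other. The median of these genes was 0.041 for the brighter probe and 0.037 for the other. Lower differences than that of the probe were seen in 7.40% and 7.29% of them.

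Rod and cone markers are given beside Elovl4. Of 8 rod markers 5 had a negative difference, with a median of -0.21, and their signals summed to 931 times the 75th percentile on the array labelled Mef2d KO and 1100 times in WT. With median scaling 4 of the 8 were negative. That scaling raises every difference by the same amount and puts the median over all genes at 0.17. A sign that changes under it, here and below, reflects that shift. None of the 8 was at background. Of 6 cone markers 5 had a negative difference, and 4 with median scaling. Their summed level was 43.5 on the array labelled Mef2d KO and 74.8 in WT, with none at background. Arr3, cone arrestin, read 260 on the array labelled Mef2d KO and 10044 in WT by the probe of higher mean level (-5.36 ± 0.20), and its other probe differed by -8.23 ± 0.22. Pde6h, the inhibitory subunit of cone phosphodiesterase, read 2651 on the array labelled Mef2d KO and 13350 in WT (-2.42 ± 0.20). The other 4 cone markers lay between -0.53 and 0.29. In bulk retina fewer cells of a type and less RNA per cell cannot be told apart, and the part of the rod and cone markers in the Elovl4 difference was not tested.

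Elovl5, which lengthens shorter polyunsaturated chains, was the member nearest to 0. It read 2277 ± 228 on the array labelled Mef2d KO and 2138 ± 214 on the WT array, with a level of 1.41 on each and a difference of 0.0034 ± 0.20. The sign of so small a value turned negative under 4 of the 7 other scalings and spot rules, the lowest being -0.037 with normexp background.

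The 3 genes of the polyunsaturated route had unlike differences. Elovl2 lay 0.64 ± 0.29 above Elovl5 and 0.84 ± 0.29 above Elovl4 in difference, and Elovl5 lay 0.20 ± 0.29 above Elovl4. Over all 15 pairs of the 6 measured elongases, the 5 pairs with Elovl2 had gaps of 0.51 to 0.89, while the 10 pairs without it had gaps of 0.041 to 0.38. Each gap had a scanner error of 0.29, and these are descriptions of 2 arrays. The larger gaps with Elovl2 follow from its own difference, the highest of the 6, and add nothing to it.

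**Figure D1:**
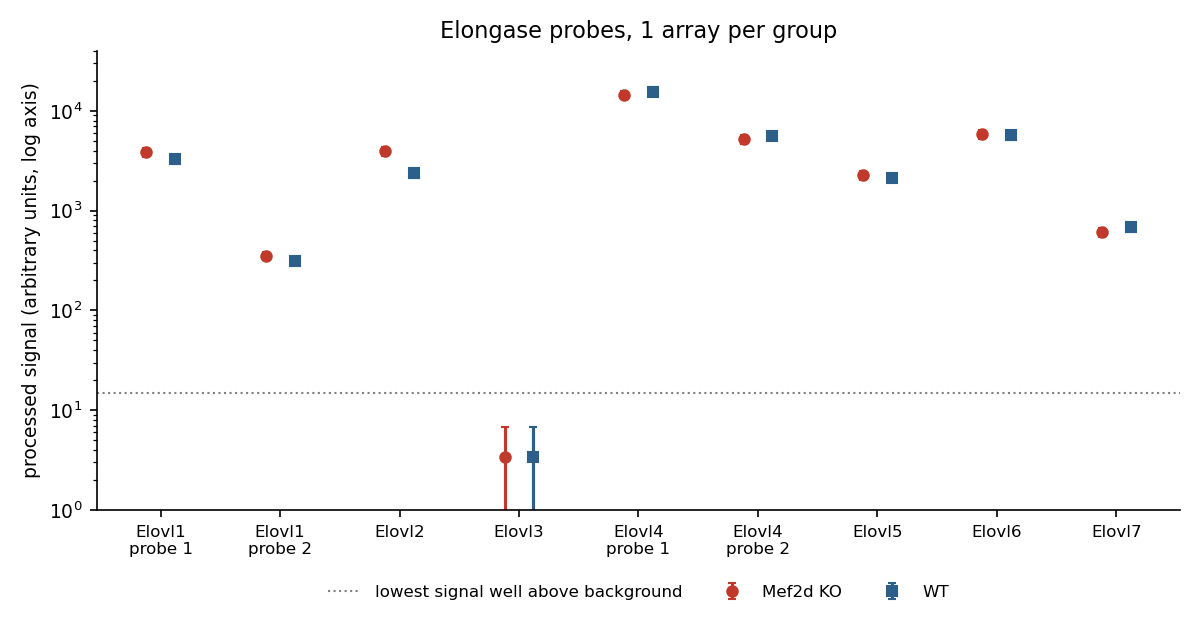
Processed signal (log axis, arbitrary units) of the 9 elongase probes, with red circles for Mef2d KO, blue squares for WT and bars for the scanner error, which run off the axis for Elovl3. Elovl2 is visibly higher for Mef2d KO (3953 against 2384), the other pairs nearly coincide, and Elovl3 lies under the dotted line of the lowest signal well above background.

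Of the elongases of saturated and monounsaturated chains, Elovl1, which supplies very long chains for sphingolipids, was slightly brighter by both of its probes. The brighter one read 3826 ± 383 on the array labelled Mef2d KO and 3296 ± 330 in WT, a difference of 0.13 ± 0.20. The dimmer read 353 ± 35 on the array labelled Mef2d KO and 314 ± 32 in WT, a difference of 0.084 ± 0.21. Both differences were smaller than the scanner error.

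Elovl6 lengthens palmitate to stearate and is a well-known target of the lipogenic factor SREBP-1. It read 5866 ± 587 on the array labelled Mef2d KO and 5665 ± 567 on the WT array. The unscaled signal was thus 3.55% higher, and after scaling the difference was -0.037 ± 0.20. It turned to 0.14 with median scaling. Srebf1, which encodes SREBP-1 and was added after its value was seen, differed by -0.056 ± 0.21, and by 0.12 with median scaling.

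Elovl7, an elongase of long saturated chains, had the lowest difference of the family. Its probe read 610 ± 61 on the array labelled Mef2d KO and 684 ± 68 on the WT array, a difference of -0.25 ± 0.20, or 1.19-fold lower. Of the 1787 genes of like level, 19.3% stood at least as far from 0, in either direction, and 9.18% had a lower difference. Elovl3, known from skin glands and brown fat, read 3.38 ± 3.39 on the array labelled Mef2d KO and 3.40 ± 3.41 in WT, with each error as large as its signal. The lowest signals well above background were 14.7 on the array labelled Mef2d KO and 14.9 on the WT array, so no fold change is given for it.

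No elongase was at least 2-fold apart. The count was 0 lower and 0 higher of 6 genes, where 1.74% of the 16188 measured genes were lower by 2-fold or more and 0.618% were higher by as much. At those shares fewer than 1 gene in 6 would be past 2-fold, so the count of 0 is near the background. Of all genes past 2-fold, 73.8% were lower, a share that became 53.0% under median scaling, 51.3% under cyclic loess and under quantile normalization, and 60.1% under normexp background. Among the 6 elongases 3 differences were negative and 3 positive. Their median was -0.017, against -0.0060 over all 16188 genes. Of the 6, 5 lay within 0.3 of 0, as did 78.9% of all genes.

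**Figure D2:**
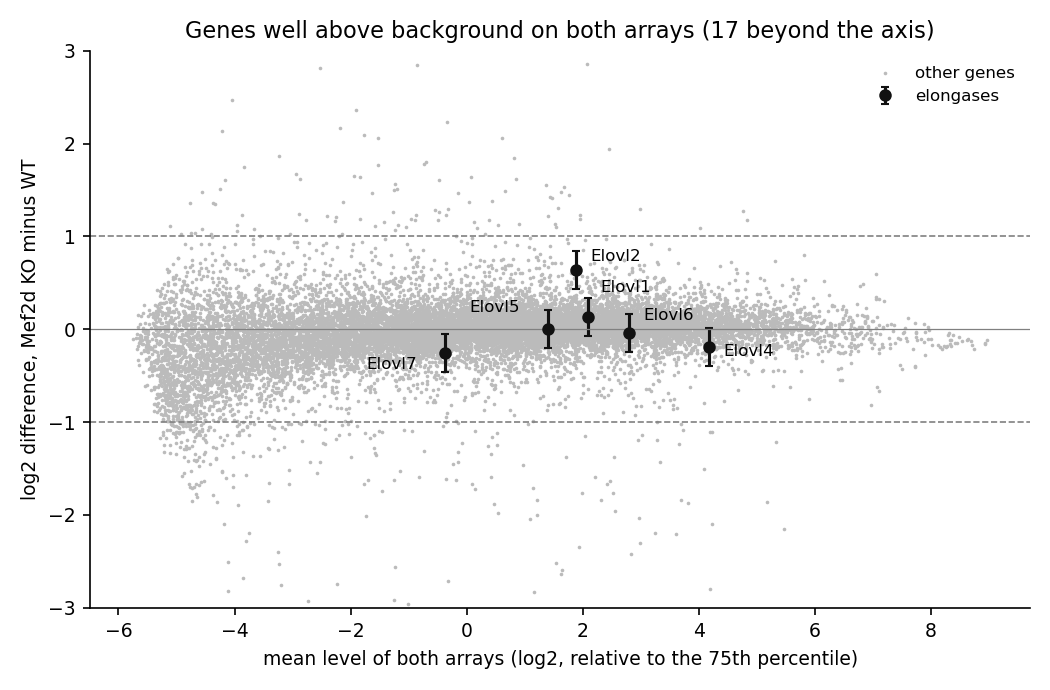
Log2 difference (Mef2d KO minus WT) against mean log2 level for genes well above background on both arrays, in grey, with the 6 measured elongases in black with scanner error bars and dashed lines at 2-fold. Elovl2 lies at 0.64, above most genes of its level, and the other 5 lie between -0.25 and 0.13, within the band of the remaining genes.

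By their brightest probes, Elovl2 was the highest and Elovl7 the lowest of the 6 elongases under each of the 8 settings applied to single probes. Under median scaling the median over all genes was 0.17, so differences were also read relative to that median. On that scale Elovl2 lay at 0.65 with the 75th percentile and with median scaling, at 0.60 with quantile normalization and with cyclic loess, and at 0.56 with normexp background. Elovl4, by its brighter probe, lay between -0.23 and -0.18. Elovl2 had a positive difference under all 8 settings (0.58 to 0.82), and so had both Elovl1 probes. Elovl7 and both Elovl4 probes were negative under all 8, with the values nearest to 0 under median scaling. Elovl7 ran from -0.27 to -0.074, the brighter Elovl4 probe from -0.21 to -0.017 and the other from -0.23 to -0.026.

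**Figure D3:**
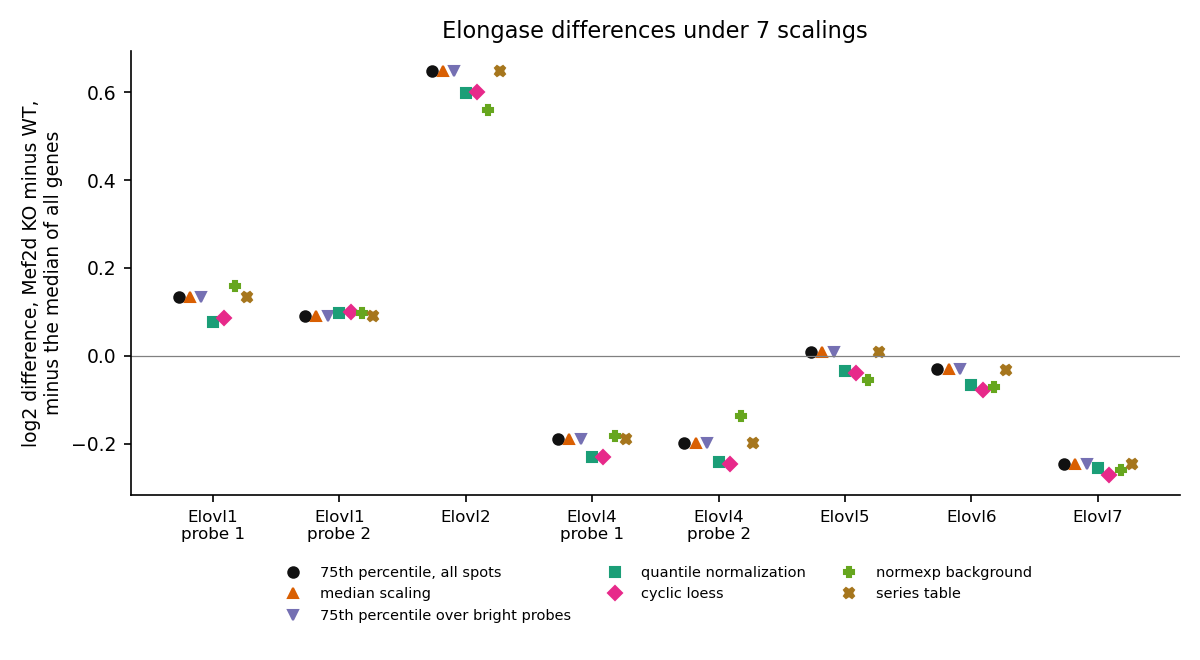
Log2 difference (Mef2d KO minus WT) of the 8 readable elongase probes, less the median of all genes, with 1 symbol for each scaling or background correction. Elovl2 stays between 0.56 and 0.65 and apart from the other members, and the symbols of Elovl5 fall on both sides of 0.

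The other genes of the pathway were taken from 8 lists of 84 genes in all, of which 82 could be measured on each array. Past 2-fold, 4 of them were lower and 1 was higher. Their median difference was -0.031, where 2.35% of all genes were 2-fold apart in either direction. With median scaling the median of these 82 genes was 0.15 and the medians of all 8 lists were positive, below or near the 0.17 of all genes. Of the 7 remaining genes of the elongation cycle, 1 was 2-fold lower. This was Tecrl, a relative of the last reductase of the cycle, at 27.2 on the array labelled Mef2d KO and 210 in WT (-3.08 ± 0.088, and -1.54 with normexp background). The other 6 are named here after their values were seen. Hsd17b12, the first reductase, differed by -0.023 ± 0.20, the dehydratase gene Hacd3 by 0.026 ± 0.20 and Tecr, the last reductase, by -0.054 ± 0.20. The other dehydratase genes were Hacd1, at 0.18 ± 0.20, Hacd2, at -0.18 ± 0.20, and Hacd4, at -0.050 ± 0.21. With median scaling the differences of all 6 were positive, between 0.00085 for Hacd2 and 0.36 for Hacd1.

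Desaturases, which insert the double bonds between rounds of elongation, stayed within 2-fold by the brightest probe of each gene. The dim second probe of Fads6, not well above background on the array labelled Mef2d KO, was lower there by at least 2.08-fold, while its brighter probe differed by -0.13 ± 0.25. A dimmer Scd3 probe differed by -0.86 ± 0.21, against -0.17 ± 0.20 for the brightest. A negative difference was seen in 7 of 8, but in 1 of 8 under median scaling, and their median was -0.13. Fads2, the first desaturase of the polyunsaturated route, was the exception, at 174 on the array labelled Mef2d KO and 137 in WT (0.25 ± 0.21). Scd1, a stearoyl-CoA desaturase, read 155 on the array labelled Mef2d KO and 171 in WT (-0.23 ± 0.21). Fads1, the next desaturase of the route and named after its value was seen, differed by -0.13 ± 0.20, which turned to 0.048 with median scaling. Neither Fads2 nor Fads1 stood as far from 0 as Elovl2.

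Genes for taking up and incorporating polyunsaturated acids held larger differences. Of 13 measured, 1 was 2-fold higher and 0 were 2-fold lower, with a median of -0.14 and 7 of 13 negative. The higher one was Fabp7, a fatty acid binding protein of glia that carries docosahexaenoic acid, at 4810 on the array labelled Mef2d KO and 1656 in WT (1.45 ± 0.20). Vldlr, a lipoprotein receptor that takes up fatty acids in retina, read 14170 on the array labelled Mef2d KO and 22708 in WT (-0.77 ± 0.20), and its dimmer probe differed by -1.03 ± 0.21.

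The same list holds 3 further genes, picked with their values already known, for their known part in retaining docosahexaenoic acid. Adipor1, a receptor needed for it in photoreceptors of mice, read 5865 on the array labelled Mef2d KO and 8638 in WT (-0.65 ± 0.20). Mfsd2a, a transporter of its lysophospholipid form, read 841 on the array labelled Mef2d KO and 1085 in WT (-0.45 ± 0.20). Agpat3, an acyltransferase that places it in phospholipids, read 23038 on the array labelled Mef2d KO and 27475 in WT (-0.34 ± 0.20). These 3 stayed negative with median scaling, at -0.47, -0.28 and -0.16. The list also held Adipor2, Lpcat1, Fabp12, Fabp5 and Lpcat3 between 0.0077 and 0.092, and Cd36 and Fabp3 at -0.42 each. Endothelial markers are given beside Mfsd2a, a gene of vessels. All 6 had a negative difference, between -0.48 and -0.040, but 4 with median scaling, and their summed level was 18.4 on the array labelled Mef2d KO and 19.6 in WT. None was at background, and their part in the Mfsd2a difference was not tested.

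Ceramide synthases, which attach the long chains made by ELOVL1 and related enzymes to sphingoid bases, held 1 gene 2-fold lower of 5. Cers4 read 7093 on the array labelled Mef2d KO and 15748 in WT, 2.36-fold lower (-1.24 ± 0.20, and -1.06 with median scaling). The other 4 lay between -0.15 and 0.062. Acyl-CoA synthetases held 1 of 13, the dim Acsbg2, at 20.4 on the array labelled Mef2d KO and 59.8 in WT (-1.64 ± 0.32, but -0.40 with normexp background). Peroxisomal oxidation held 1 of 12, the dim Acox2, at 17.6 on the array labelled Mef2d KO and 33.7 in WT (-1.02 ± 0.37). It was within 2-fold under median scaling (-0.84), quantile normalization (-0.52), cyclic loess (-0.61) and normexp background (-0.20).

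Fatty acid synthesis had no gene of 9 past 2-fold. Me1, the malic enzyme that supplies NADPH for synthesis and elongation, read 4056 on the array labelled Mef2d KO and 7077 in WT (-0.89 ± 0.20), and its other 2 probes differed by -1.08 and -0.91. Oxsm, of mitochondrial synthesis, differed by 0.25 ± 0.21. By their brightest probes, the rest of the list lay between -0.10 and 0.20. The regulators had no gene of 15 past 2-fold and a median of 0.022. By the brightest probe, the largest differences were in Ppard, a nuclear receptor for fatty acids (0.37 ± 0.20), and Srebf2, the factor of cholesterol synthesis (0.35 ± 0.21). Dimmer probes of Rxrg and Rxra stood further from 0, at 0.48 ± 0.20 and 0.45 ± 0.24. The brightest probe of Rxrg differed by -0.21 ± 0.20 and that of Rxra by -0.077 ± 0.21.

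**Figure D4:**
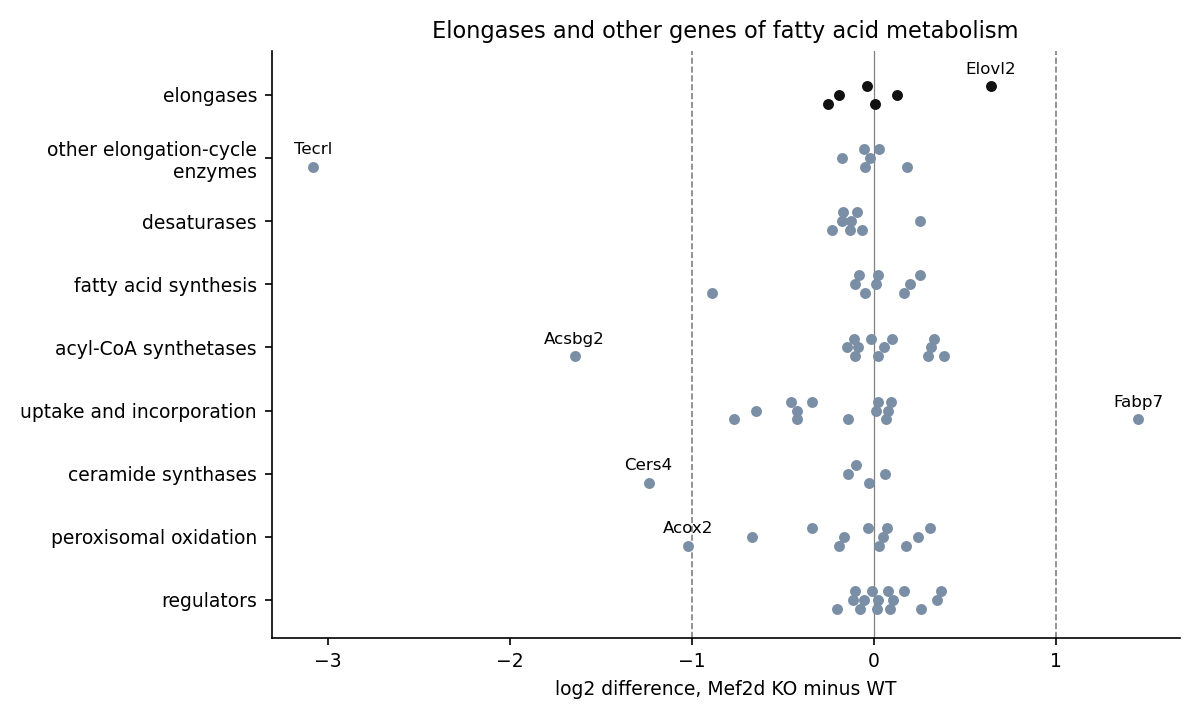
Log2 difference (Mef2d KO minus WT) of each measured gene, by list, with the elongases in black on the top line and dashed lines at 2-fold. Genes past 2-fold are named, together with Elovl2, and all lie outside the elongases, with Tecrl at -3.08 and Fabp7 at 1.45.

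Markers of other cell types are given beside Elovl2. Mueller glia and pigment epithelium also handle polyunsaturated fatty acids. Negative differences were seen in 4 of 6 Mueller glia markers, with a median of -0.14. Under median scaling 0 were negative and their median was 0.042, where the median over all genes was 0.17. The summed level of the 6 was 205 on the array labelled Mef2d KO and 208 in WT. None was at background. Of 8 measured pigment epithelium markers 6 had a positive difference, between 0.10 and 0.41, and the summed level of all 9 was 44.8 on the array labelled Mef2d KO and 40.4 in WT. The marker Best1 was not well above background on either array. Of 6 microglia markers 5 had a positive difference, with a median of 0.29 and the highest in C1qa and Aif1 (0.54 each), and their summed level was 9.75 on the array labelled Mef2d KO and 7.98 in WT. All 3 measured blood markers had a positive difference, between 0.29 and 0.49, and their levels summed to 26.6 for Mef2d KO and 20.9 for WT. None of these 9 was at background. Of the 8 lens markers measured on both arrays 7 had a negative difference, and Bfsp1, at 0.30, was the exception. The part of any of these in the Elovl2 difference was not tested.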

How the data were processed

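The intensity values were deposited by the authors as scanner output of Agilent Feature Extraction 10.10.1.1, background-subtracted and detrended, per the file headers. Both arrays shared a slide and a scan. The series table deposited with them repeats these intensities times 1 constant per array (1.76 for Mef2d KO and 1.88 for WT). It is linear and not centred, with column medians of 136.6 and 155.1, and no source used here says how the constants were set.

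A level was the log2 processed signal less the 75th percentile of 59305 probe spots on that array. Outlier spots were left out (126 on the Mef2d KO array and 106 on the WT array), and spots of 1 probe were averaged. No spot was saturated. Of the probes, 27231 were named through RefSeq accessions without version, with the GRCm38.p6 gene table. The design of the array is on build mm9, so gene positions are given by promoter window only. Each gene stood by its brightest probe, preferring probes well above background on both arrays. A bound set the bright signal against the dim probe's own signal or the lowest one well above background, whichever was higher. Named were all elongase probes, every gene of a pathway list past 2-fold or with a bound of that size and, in lists with none past 2-fold, the 2 largest differences. Other pathway genes, among them Vldlr and Srebf1, the dimmer Scd3 probe and all single markers were added after their values were seen. The members and lists were chosen with earlier results of these data known.

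In simulated data of 2 arrays with scanner noise, 50 of 50 genes were recovered past 2-fold at each log2 change of -3, -1.5, 1.5 and 3, and 15 of 16916 unchanged genes passed. The tools were limma 3.58.1 in R 4.3.3, and numpy 2.4.6, matplotlib 3.10.9 and pandas 2.3.3 in Python 3.11.15. The number of arrays limits the precision.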

Additional observations from a re-analysis of the deposited data

How the results depend on the processing

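All 63 recomputed values of the 9 elongase probes stayed within the scanner error of the values above. The settings were median scaling, a 75th percentile over bright probes, quantile normalization, cyclic loess, normexp background, the series table and outlier spots kept. Normexp had an offset of 50 and was run on median spot and background signals, since the scanner output holds no mean spot signal. Much of this was fixed in advance. Median scaling and the second 75th percentile shift all differences alike, by less than the scanner error. The series table repeats the signals times a constant, and keeping outlier spots changed no elongase value. For Elovl3 the error of 2.05 exceeds every change. The count of elongases past 2-fold stayed 0 in each direction under all these scalings, with the mean over probes and without the filter on dim probes. Their median ran from -0.044 with normexp background to 0.16 with median scaling. The 4 pathway genes 2-fold lower became 2 with normexp background, Tecrl and Cers4, and 3 with median scaling, quantile normalization and cyclic loess, where Acox2 was within 2-fold. Of all genes, those at least 2-fold lower numbered 1739 without the filter, 95 under normexp background, 162 under cyclic loess, 164 under quantile normalization and 170 under median scaling, and those higher 225, 63, 154, 156 and 151 in that order. Without the filter 20659 genes entered in place of 16188. Under median scaling the counts moved because every difference was raised by the same amount. For the other settings the cause was not tested. No paired analysis was possible because each group has 1 array, and no replicate could be left out. A probe dim on both arrays, as for Elovl3, gives no direction.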
